A study of Mus musculus with 6 samples.

Results

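Splenic macrophages that carried little Ly6C were compared across the F4/80 gate, in mice without leukemia and in mice with T-cell acute lymphoblastic leukemia (T-ALL). Each sorted Ly6cloF4/80hi fraction was set against the Ly6cloF4/80lo fraction of the same state, so the comparison rested on 4 of the 6 libraries in the series, arranged as 2 pairs. Genes were taken into the description when they reached at least 5 FPKM (a fragment count scaled to transcript length and library depth) in at least 1 of these 4 libraries. This held for 9317 of the 16058 gene identifiers listed in the series (58.0%), and 9296 of the 9317 were listed above 0 in all 4 libraries. Just inside the threshold lay Ddx19b, Ino80b and Nkx2-1, each with a highest value of 5 FPKM, and just outside lay Cables2, Fam114a1 and Hgf, each with a highest value of 4.99 FPKM.

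All libraries came from spleens of C57BL/6 mice aged 6-8 weeks. The normal fractions were labelled as controls at day 0, and the T-ALL fractions were taken 15 days after 1000000 GFP+ leukemia cells had been transplanted into each unirradiated recipient. The leukemia cells had been isolated from other leukemic mice, and transplanted mice survived 35 to 40 days. Each gate and state had 1 library, the oncogene behind the leukemia was not named in the labels, and the labels did not say whether fractions of one state came from the same or from pooled spleens. P-values therefore set each gate difference against how far gate differences changed between the states over the 6 libraries, not a spread between mice. A gene whose difference varied between the states thus tended to pass less easily. A difference between the normal and the T-ALL pair could not be told apart from a difference between single libraries.

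F4/80, the protein product of Adgre1, is a surface receptor that mature tissue macrophages of the mouse carry at high density. In the spleen it marks the macrophages of the red pulp, which remove worn-out red blood cells, take heme apart with heme oxygenase and return iron to the blood through the exporter ferroportin, under the transcription factor Spi-C. Cells with low Ly6C and low F4/80 can include patrolling monocytes, which depend on the nuclear receptor Nr4a1 and survey the vessel wall, and dendritic cells.

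The sort could be followed in the RNA, and values below are given with the F4/80lo library first and the F4/80hi library second. Adgre1 stood at 86.7 and 529 FPKM in the normal pair and 74.7 and 234 FPKM in the T-ALL pair. It was higher in both F4/80hi libraries (log2 difference 2.12, SE 0.26, adjusted p = 0.0123), and since the gate selected on its protein this checked the labels and was no finding. Adgre1 lost its call without the normal F4/80hi library (adjusted p = 0.0615). Ly6c2, which encodes the Ly6C antigen of inflammatory monocytes and has near-identical neighbours among which reads may have been split, was at 19.9 and 11.8 FPKM in the normal pair and 21.4 and 19.8 FPKM in the T-ALL pair, against 482 and 1405 FPKM in the normal and T-ALL Ly6chiF4/80lo libraries. It did not pass between the gates (log2 difference -0.41, SE 0.33, adjusted p = 0.555). Neighbouring cell types were also present in the RNA of all 4 libraries: the summed level of 19 B cell genes was 5634 and 2989 FPKM in the normal pair and 3839.9 and 3099 FPKM in the T-ALL pair. Its part in the differences below was not tested, and in sorted bulk RNA fewer cells of a type and less RNA per cell cannot be told apart. Estimated depth was 7800000 to 8760000 fragments in these 4 libraries, which gives a counting error of 7.56% to 8.01% for a 2 kb transcript at 10 FPKM and of 23.9% to 25.3% at 1 FPKM.

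Across the gate, more genes passed the test as higher in F4/80hi than as lower. The test was limma on log2(FPKM + 1) over the 6 libraries with state as a block, fitted and adjusted over the 11616 genes that reached 1 FPKM in 2 or more libraries. Of all these 3.56% passed at an adjusted p under 0.05, 2.66% as higher and 0.904% as lower. Of the 9317 described genes 8 missed that filter, and among the 9309 that were tested 409 passed (4.39%). Of these, 304 were higher in the F4/80hi libraries (3.27%) and 105 were lower (1.13%), while log2 differences over the tested genes ran from -3.06 to 4.78 with a median of -0.11. A fold change on this scale understates the change of low genes.

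The higher genes moved much further than the lower ones. Of the 304 higher genes, 300 differed at least 2-fold, 190 at least 4-fold and 21 at least 16-fold. Of the 105 lower genes, 95 differed at least 2-fold and 4 at least 4-fold. Both F4/80hi libraries lay above both F4/80lo libraries for 302 of the 304, where 13.8% of the described genes did so, and both lay below for 101 of the 105, where 25.9% did so. For a gene that passed, such an order or lack of overlap, where given below, therefore adds little to the call. The higher genes were also above both Ly6chiF4/80lo libraries in both F4/80hi libraries for 279 of 304 (91.8%), against 26.7% of the tested genes.

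Some of these calls depended on which libraries and settings entered. With no block for state, 0 genes passed in limma, although 1028 had an unadjusted p under 0.05, against 1956 with the block. Without the filter on low values 166 genes passed, 154 of them higher. Leaving out the normal F4/80lo library left 127 passing genes, 11 of them lower, and leaving out the normal F4/80hi library left 149, 9 of them lower, while leaving out the T-ALL F4/80hi library gave 630.

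**Figure D1:**
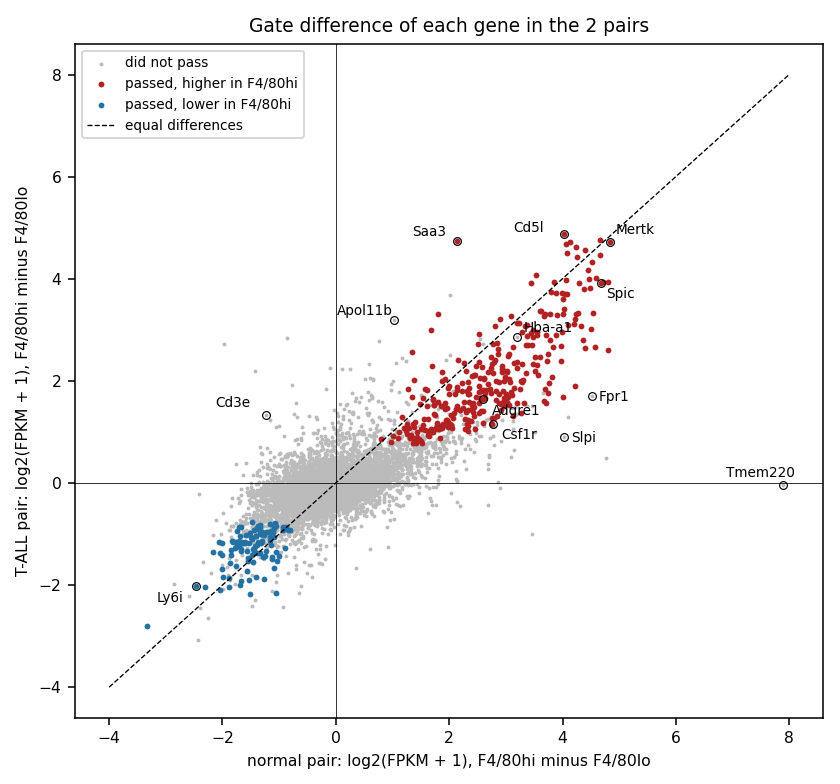
Log2 difference in FPKM + 1 between F4/80hi and F4/80lo in the T-ALL pair (y axis) against the same in the normal pair (x axis), 1 point for each described gene, with genes that passed higher and lower in colour. The 304 higher genes stretch along the upper right, mostly with a larger value in the normal pair, while Tmem220 and Cd3e are labelled genes away from that trend.

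The same direction was seen in both states for most genes, and the normal pair was the wider one. In the normal pair, 752 genes were at least 2-fold higher (8.07%) and 628 at least 2-fold lower (6.74%) in F4/80hi. In the T-ALL pair, 446 were higher (4.79%) and 216 lower (2.32%). In both pairs at once, 356 genes were higher (3.82%) and 149 were lower (1.60%), while 6 were 2-fold apart in opposite directions. Thus 79.8% of the genes that were 2-fold higher in the T-ALL pair were so in the normal pair, and 47.3% the other way round. The difference kept 1 sign in both pairs for 6558 genes (70.4%), and across genes, which are not independent replicates, the T-ALL differences correlated with the normal ones with r = 0.75 and a slope of 0.54. Of the 304 genes that passed as higher, 269 (88.5%) had the larger difference in the normal pair, against 69.7% of the tested genes. Their median log2 difference was 2.69 in the normal pair and 1.85 in the T-ALL pair. The F4/80hi library of T-ALL was below that of the normal spleen for 284 of these 304 genes (93.4%), against 46.9% of the tested genes, and the F4/80lo library was so for 230 of them (75.7%), against 48.5%. With 1 library a side, this difference between the states was not tested.

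Genes of red pulp macrophages were the most widely separated group. Of 23 such genes that were measured, 20 passed as higher in F4/80hi and 0 as lower, with a median log2 difference of 3.54, against -0.11 over all 9309 tested genes. Adgre1, on whose protein the gate selected, is among the 23 and among the 20, and its part in these counts is no finding. In both pairs the F4/80hi library was above the F4/80lo library for all 23. Their summed level was 1150.0 and 15090.5 FPKM in the normal pair and 748 and 5516 FPKM in the T-ALL pair.

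Spic, which encodes the transcription factor that red pulp macrophages require, was at 31.8 and 837 FPKM in the normal pair and 20.8 and 329 FPKM in the T-ALL pair. Both F4/80hi libraries were far above both F4/80lo libraries (log2 difference 4.30, SE 0.24, adjusted p = 0.00104). Vcam1, an adhesion molecule carried by these macrophages, was at 80.4 and 2046 FPKM in the normal pair and 24.9 and 701 FPKM in the T-ALL pair. The order of the 4 libraries was that of Spic, with the normal F4/80hi library highest and the T-ALL F4/80lo library lowest (log2 difference 4.71, SE 0.20, adjusted p = 0.000581). Mertk, a receptor tyrosine kinase that recognizes apoptotic cells, had the largest log2 difference of the genes named under the rule. It was measured at 4.76 and 164 FPKM in the normal pair and 1.34 and 60.8 FPKM in the T-ALL pair. Neither F4/80lo library came near the F4/80hi libraries (log2 difference 4.78, SE 0.21, adjusted p = 0.000581). Its relative Axl was at 20.96 and 557 FPKM in the normal pair and 6.15 and 158 FPKM in the T-ALL pair, again without overlap (log2 difference 4.57, SE 0.17, adjusted p = 0.000581).

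Secreted and surface products of the same macrophages followed this pattern. Cd5l, a secreted scavenger-receptor-like protein, was at 30.1 and 509 FPKM in the normal pair and 17.7 and 547 FPKM in the T-ALL pair. Unlike most of the group it was no lower in the T-ALL F4/80hi library than in the normal one (log2 difference 4.45, SE 0.23, adjusted p = 0.00104). Fcna, the lectin ficolin A, was at 88.7 and 1509.8 FPKM in the normal pair and 22.1 and 526 FPKM in the T-ALL pair (log2 difference 4.29, SE 0.20, adjusted p = 0.000581). Itgad, an integrin alpha chain, was at 16.9 and 409 FPKM in the normal pair and 5.17 and 123 FPKM in the T-ALL pair (log2 difference 4.42, SE 0.18, adjusted p = 0.000581). For both genes each F4/80hi library exceeded both F4/80lo libraries. Fcna and Clec4n were named after their values were seen. The last of these 4 genes was Clec4n, the C-type lectin Dectin-2, at 39.8 and 663 FPKM in the normal pair and 38.3 and 416 FPKM in the T-ALL pair (log2 difference 3.72, SE 0.21, adjusted p = 0.00104).

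The 3 that did not pass were Epor, Pparg and Treml4. Epor, the erythropoietin receptor, named after its values were seen, was at 2.51 and 39.1 FPKM in the normal pair and 22.3 and 45.7 FPKM in the T-ALL pair. Its T-ALL F4/80lo library was closer to the F4/80hi libraries than its normal F4/80lo library was, and the test did not pass (log2 difference 2.26, SE 0.64, adjusted p = 0.132). Treml4, a receptor of the TREM family that patrolling monocytes share, was at 117 and 511 FPKM in the normal pair and 164 and 193 FPKM in the T-ALL pair, so that only the normal pair was wide apart (log2 difference 1.17, SE 0.43, adjusted p = 0.213). Without either of the normal Ly6clo libraries, 16 of the 23 passed.

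**Figure D2:**
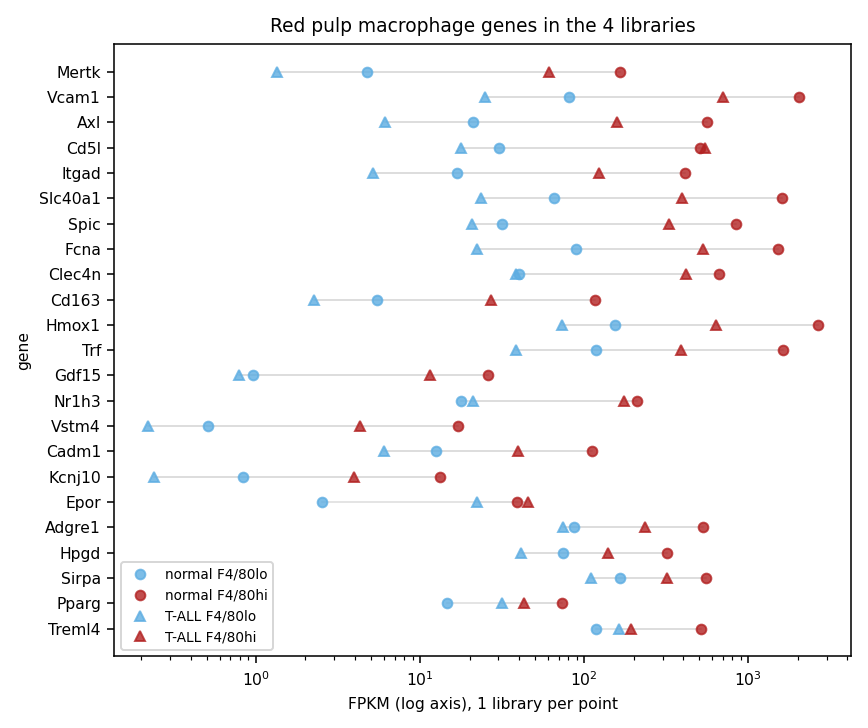
FPKM (log axis) of 23 red pulp macrophage genes in the 4 Ly6clo libraries, 1 row per gene, with symbols for gate and state. The F4/80hi symbols lie to the right of the F4/80lo symbols of the same state in every row, and Epor, Pparg and Treml4 show the narrow T-ALL pairs described in the text. The row of Adgre1 shows the gene whose protein set the gate.

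The promoters of genes that moved together were searched for short motifs, in the 250 bases before each RefSeq start (build GRCm38.p6). The letters GGAAGT, the core of sites bound by PU.1 and Spi-C type factors, were searched on both strands and lie within the longer motif GAGGAAGT. This core was added after the values were seen. Shares are of genes with an entry, and a gene counts where any of its windows holds the letters. The core was present for 22.2% of all 27025 genes in the table, 29.9% of the 7604 tested genes with an entry, 29.1% of the genes higher in F4/80hi (67 of 230) and 32.1% of the lower genes (27 of 84). The higher genes were thus at the level of the tested ones. GAGGAAGT was present for 2.79% of all genes and 3.51% of the tested genes. It was present for 5.22% of the higher genes (12 of 230) and 11.9% of the lower genes (10 of 84). The windows of Spic and Fcna are printed because these are red pulp genes with large differences whose window holds the core, which stands in capitals. Of the 15 red pulp genes with an entry, 4 held the core. Spic lies on the minus strand at chr10:88683024-88683273, with the match starting at position -48 from the start, and Fcna on the minus strand at chr2:25627975-25628224, with the match at -14.
Spic: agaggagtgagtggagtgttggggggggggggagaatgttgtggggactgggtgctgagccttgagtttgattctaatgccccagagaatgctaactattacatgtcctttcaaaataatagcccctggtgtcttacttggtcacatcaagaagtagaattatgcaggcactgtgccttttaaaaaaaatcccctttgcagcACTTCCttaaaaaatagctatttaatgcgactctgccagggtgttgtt
Fcna: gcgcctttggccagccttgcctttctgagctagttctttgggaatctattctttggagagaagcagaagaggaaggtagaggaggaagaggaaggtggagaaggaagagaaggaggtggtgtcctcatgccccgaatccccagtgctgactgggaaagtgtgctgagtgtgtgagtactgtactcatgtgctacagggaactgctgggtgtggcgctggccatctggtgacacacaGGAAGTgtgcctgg
Of the other motifs searched on both strands, CACGTG was present for 6.86% of all genes, 10.4% of the tested, 10.4% of the higher and 5.95% of the lower genes, so that the higher genes were at the level of the tested ones. In the same order, TCACATGA was present for 0.984%, 0.776%, 2.61% (6 of 230) and 0% (0 of 84). TGACTCA was present for 5.16%, 3.92%, 6.96% (16 of 230) and 9.52% (8 of 84). A longer motif of Maf and NRF2 type contains TGACTCA on the other strand. It was present for 0.141%, 0.105%, 0.870% (2 of 230) and 0% (0 of 84), and counts this small say little. A match is a description of letters, not of binding. The windows of Mertk, Axl, Cd5l and Cd163 held none of these letters.

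Genes that handle iron and heme were partly included in the difference. Of 24 measured, 9 passed as higher and 0 as lower, with a median log2 difference of 1.21 (1.30 in the normal pair and 0.97 in the T-ALL pair). 4 of the 9 were also in the red pulp list. Slc40a1, the iron exporter ferroportin, was at 65.7 and 1597 FPKM in the normal pair and 23.4 and 396 FPKM in the T-ALL pair. Both F4/80hi libraries stood above the others, and the normal one was the highest (log2 difference 4.30, SE 0.25, adjusted p = 0.00104). Hmox1, heme oxygenase 1, was at 153 and 2644 FPKM in the normal pair and 73.7 and 634 FPKM in the T-ALL pair (log2 difference 3.60, SE 0.33, adjusted p = 0.00393). Cd163, the receptor for hemoglobin bound to haptoglobin, was at 5.43 and 117 FPKM in the normal pair and 2.25 and 27.1 FPKM in the T-ALL pair (log2 difference 3.66, SE 0.28, adjusted p = 0.00177). These 3 genes cover uptake, breakdown and export, and they did not overlap between gates, like 302 of the 304 higher genes.

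Trf, the plasma iron carrier transferrin, was at 119 and 1633 FPKM in the normal pair and 38.2 and 387 FPKM in the T-ALL pair (log2 difference 3.54, SE 0.20, adjusted p = 0.00104). Hebp1, a heme-binding protein, was at 13.5 and 159 FPKM in the normal pair and 21.0 and 141 FPKM in the T-ALL pair, with F4/80hi libraries that were nearly equal in the normal and the T-ALL spleen (log2 difference 3.08, SE 0.23, adjusted p = 0.00174). Slc48a1, the heme transporter of the phagosome, was at 31.2 and 216 FPKM in the normal pair and 36.5 and 90.1 FPKM in the T-ALL pair and passed narrowly (log2 difference 2.02, SE 0.37, adjusted p = 0.0453). The remaining genes of this list that passed, named here after their values were seen, were Blvra and Blvrb, the biliverdin reductases, and Ncoa4, which delivers ferritin for breakdown, with log2 differences of 1.92, 1.67 and 1.34. Ferritin itself was abundant in all libraries, and its chains did not pass. The light chain gene Ftl1, named after its values were seen, was at 2775 and 11044 FPKM in the normal pair and 2721 and 5979 FPKM in the T-ALL pair (log2 difference 1.56, SE 0.35, adjusted p = 0.0725). Without the normal F4/80lo library 5 of the 24 iron genes passed, and without the normal F4/80hi library 6. Slc48a1 lost its call without the normal F4/80lo, normal F4/80hi or the T-ALL F4/80lo library (adjusted p = 0.364, 0.0744 and 0.0834), and Blvrb did so without the normal F4/80lo, normal F4/80hi or the T-ALL F4/80hi library (adjusted p = 0.135, 0.239 and 0.0576). Blvra lost its call without the normal F4/80lo library (adjusted p = 0.0563), and Ncoa4 did so without the normal F4/80lo, normal F4/80hi or the T-ALL F4/80lo library (adjusted p = 0.167, 0.116 and 0.0559).

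Complement components were higher in F4/80hi and complement receptor integrins were lower. Of 14 tested, 9 passed as higher and 2 as lower, and the median log2 difference was 2.04. The 3 chains of C1q, which opens the classical pathway, were abundant in both F4/80hi libraries. C1qa was at 136 and 2567 FPKM in the normal pair and 46.3 and 1156 FPKM in the T-ALL pair (log2 difference 4.42, SE 0.24, adjusted p = 0.00104). C1qb was at 155 and 2603 FPKM in the normal pair and 54.7 and 1418 FPKM in the T-ALL pair (log2 difference 4.37, SE 0.26, adjusted p = 0.00104). C1qc was at 144 and 2539 FPKM in the normal pair and 48.9 and 1306 FPKM in the T-ALL pair (log2 difference 4.42, SE 0.26, adjusted p = 0.00104). All 3 had the same order of libraries and a wider ratio in the T-ALL pair, in which the F4/80lo library was the lowest of the 4.

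C6, a component of the terminal pore, was at 7.93 and 187 FPKM in the normal pair and 2.0 and 69.96 FPKM in the T-ALL pair (log2 difference 4.48, SE 0.18, adjusted p = 0.000581). C2, the protease of the classical pathway, was at 3.22 and 47.7 FPKM in the normal pair and 1.09 and 34.3 FPKM in the T-ALL pair (log2 difference 3.80, SE 0.29, adjusted p = 0.00178). Cfp, properdin of the alternative pathway, was at 202 and 1351 FPKM in the normal pair and 97.6 and 547 FPKM in the T-ALL pair (log2 difference 2.61, SE 0.25, adjusted p = 0.00462). In each, the groups did not overlap, as for 302 of the 304 higher genes. C4b, named after its values were seen, whose reads may be shared with its near-identical neighbour C4a, was at 0.34 and 3.70 FPKM in the normal pair and 0.49 and 13.7 FPKM in the T-ALL pair, highest in the T-ALL F4/80hi library (log2 difference 2.56, SE 0.38, adjusted p = 0.0231). The 2 lower genes were the complement receptor integrins. Itgam, which encodes CD11b, was at 39.8 and 14.6 FPKM in the normal pair and 41.5 and 15.4 FPKM in the T-ALL pair, so that both F4/80hi libraries were below both F4/80lo libraries by a similar ratio (log2 difference -1.38, SE 0.22, adjusted p = 0.0289). Itgax, which encodes CD11c and was named after its values were seen, was at 131 and 49.8 FPKM in the normal pair and 89.1 and 39.6 FPKM in the T-ALL pair (log2 difference -1.26, SE 0.18, adjusted p = 0.0203). C4b lost its call without the T-ALL F4/80lo library (adjusted p = 0.0709). Itgam lost its call without the normal F4/80lo, normal F4/80hi or the T-ALL F4/80lo library (adjusted p = 0.112, 0.185 and 0.104), and Itgax did so without the normal F4/80lo or the normal F4/80hi library (adjusted p = 0.198 and 0.114). The C1q genes lie next to each other, and the windows before 2 of them are printed because both chains changed together and hold the core GGAAGT, in capitals. They were chosen after their values were seen, and 5 of the 12 complement genes with an entry held the core. C1qb lies on the minus strand at chr4:136886201-136886450, with the match at -53, and C1qc on the minus strand at chr4:136892915-136893164, with the match at -195 as part of GAGGAAGT.
C1qb: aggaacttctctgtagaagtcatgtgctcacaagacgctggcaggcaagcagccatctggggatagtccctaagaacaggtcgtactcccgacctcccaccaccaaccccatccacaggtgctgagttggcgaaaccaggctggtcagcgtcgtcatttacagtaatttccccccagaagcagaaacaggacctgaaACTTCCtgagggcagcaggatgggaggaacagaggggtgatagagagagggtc
C1qc: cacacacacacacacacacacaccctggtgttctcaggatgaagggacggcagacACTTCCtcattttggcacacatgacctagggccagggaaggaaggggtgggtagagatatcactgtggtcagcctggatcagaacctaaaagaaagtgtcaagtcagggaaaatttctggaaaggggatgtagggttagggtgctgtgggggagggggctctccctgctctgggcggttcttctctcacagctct

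Receptors for the uptake of particles and dying cells were higher in F4/80hi in part. Of 15 scavenger receptor genes, 8 passed as higher and 0 as lower, with a median log2 difference of 1.52. Of 15 genes for the uptake of apoptotic cells, 6 passed as higher and 0 as lower, with a median of 1.41. Mrc1, the mannose receptor, was at 13.1 and 307 FPKM in the normal pair and 3.22 and 75.2 FPKM in the T-ALL pair (log2 difference 4.31, SE 0.27, adjusted p = 0.00104). Clec1b, the lectin CLEC-2 that is also known from platelets, was at 4.64 and 89.97 FPKM in the normal pair and 3.64 and 45.2 FPKM in the T-ALL pair (log2 difference 3.66, SE 0.24, adjusted p = 0.00122). Stab2, the hyaluronan and phosphatidylserine receptor stabilin-2, was at 1.70 and 39.4 FPKM in the normal pair and 0.45 and 13.2 FPKM in the T-ALL pair (log2 difference 3.60, SE 0.27, adjusted p = 0.00177). Levels in the F4/80lo libraries were low for all 3, and none of the other 7 genes tested from the platelet list or 3 from the endothelial list passed.

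Timd4, a phosphatidylserine receptor of resident macrophages, was at 4.68 and 39.6 FPKM in the normal pair and 2.48 and 22.4 FPKM in the T-ALL pair (log2 difference 2.79, SE 0.20, adjusted p = 0.00148). Gas6, the bridging ligand of Axl and Mertk, was at 0.44 and 10.7 FPKM in the normal pair and 0.23 and 2.68 FPKM in the T-ALL pair, so that ligand and receptors were higher in the same libraries (log2 difference 2.30, SE 0.38, adjusted p = 0.0319). Marginal zone and metallophilic macrophage genes were also included, with 5 of 8 passing as higher, of which Mertk and Nr1h3 are also in the red pulp list. Siglec1, the sialoadhesin CD169, was at 2.57 and 31.9 FPKM in the normal pair and 0.5 and 12.1 FPKM in the T-ALL pair (log2 difference 3.17, SE 0.19, adjusted p = 0.00104). Marco, a class A scavenger receptor, was at 16.3 and 55.1 FPKM in the normal pair and 6.97 and 38.2 FPKM in the T-ALL pair (log2 difference 2.0, SE 0.26, adjusted p = 0.0139). Cd209b, a lectin that defines marginal zone macrophages, did not reach 5 FPKM in any of the 4 libraries. Not every scavenger receptor was higher: Cd36, a fatty acid and lipoprotein receptor named after its values were seen, was at 45.1 and 16.9 FPKM in the normal pair and 42.1 and 24.5 FPKM in the T-ALL pair and did not pass (log2 difference -1.06, SE 0.27, adjusted p = 0.0996). Gas6 lost its call without the normal F4/80lo or the normal F4/80hi library (adjusted p = 0.198 and 0.0865), and Marco did so without the normal F4/80lo or the T-ALL F4/80lo library (adjusted p = 0.0938 and 0.0549).

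Genes of lipid and cholesterol handling were higher in part. Of 27 measured, 11 passed as higher and 2 as lower, with a median log2 difference of 0.85. Ptgs1, the cyclooxygenase that makes prostaglandin H, was at 10.96 and 199.9 FPKM in the normal pair and 4.19 and 80.9 FPKM in the T-ALL pair (log2 difference 4.03, SE 0.31, adjusted p = 0.00179). Ptgis, prostacyclin synthase, was at 3.65 and 53.7 FPKM in the normal pair and 0.34 and 8.98 FPKM in the T-ALL pair (log2 difference 3.23, SE 0.41, adjusted p = 0.0137). The 2 lower genes were Alox5ap and Alox5 of leukotriene synthesis, named after their values were seen. Alox5ap, which presents arachidonate to 5-lipoxygenase, was at 218 and 78.2 FPKM in the normal pair and 174 and 58.5 FPKM in the T-ALL pair (log2 difference -1.51, SE 0.18, adjusted p = 0.011). Alox5, the 5-lipoxygenase, was at 6.51 and 1.35 FPKM in the normal pair and 6.68 and 2.13 FPKM in the T-ALL pair (log2 difference -1.49, SE 0.22, adjusted p = 0.0222). Ltb4r1, the receptor for leukotriene B4, which is not in the lipid list, was at 13.8 and 3.64 FPKM in the normal pair and 12.7 and 2.61 FPKM in the T-ALL pair (log2 difference -1.80, SE 0.17, adjusted p = 0.00466). For these 3 genes both F4/80hi libraries were below both F4/80lo libraries. Ptgis lost its call without the normal F4/80lo, normal F4/80hi or the T-ALL F4/80lo library (adjusted p = 0.131, 0.0768 and 0.084). Alox5ap lost its call without the normal F4/80lo or the normal F4/80hi library (adjusted p = 0.0563 and 0.0835), and Alox5 did so without the normal F4/80lo, normal F4/80hi or the T-ALL F4/80lo library (adjusted p = 0.147, 0.112 and 0.0667).

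Nr1h3, the oxysterol receptor LXR alpha, was at 17.8 and 209 FPKM in the normal pair and 21.0 and 174 FPKM in the T-ALL pair (log2 difference 3.23, SE 0.21, adjusted p = 0.00119). Apoc1, an apolipoprotein, was at 8.29 and 99.7 FPKM in the normal pair and 1.79 and 41.1 FPKM in the T-ALL pair (log2 difference 3.68, SE 0.25, adjusted p = 0.00122). Lpl, lipoprotein lipase, was at 7.79 and 68.8 FPKM in the normal pair and 4.80 and 23.3 FPKM in the T-ALL pair (log2 difference 2.53, SE 0.25, adjusted p = 0.0052). All 3 were without overlap between gates, like 302 of the 304 higher genes. Without the normal F4/80lo library 4 of the 27 lipid genes passed as higher, and without the normal F4/80hi library 5.

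Lysosomal genes were higher in part, and most by less than 2-fold. Of 31 measured, 7 passed as higher and 0 as lower, with a median log2 difference of 0.66. Ctsd, the aspartic protease cathepsin D, was at 169.8 and 1569.8 FPKM in the normal pair and 187 and 887 FPKM in the T-ALL pair (log2 difference 2.72, SE 0.29, adjusted p = 0.00722). Ctsl, cathepsin L, was at 8.27 and 63.7 FPKM in the normal pair and 9.39 and 54.02 FPKM in the T-ALL pair (log2 difference 2.60, SE 0.18, adjusted p = 0.00125). Lgmn, the asparaginyl endopeptidase legumain, was at 152 and 893 FPKM in the normal pair and 127 and 533 FPKM in the T-ALL pair (log2 difference 2.30, SE 0.22, adjusted p = 0.00496). The F4/80hi libraries of both states exceeded all F4/80lo libraries in these 3, while the median of the whole list was well below them. Without the normal F4/80lo library 4 of the 31 passed, and without the normal F4/80hi library 3.

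Receptors for antibodies and for lipopolysaccharide were higher in part. Of 7 Fc gamma receptor genes, 3 passed as higher and 0 as lower, and 0 passed without the normal F4/80hi library. Fcgr1, the high-affinity activating receptor, was at 3.48 and 50.4 FPKM in the normal pair and 2.45 and 18.02 FPKM in the T-ALL pair (log2 difference 2.99, SE 0.30, adjusted p = 0.00579). Fcgr2b, the inhibitory receptor, was at 72.5 and 29.8 FPKM in the normal pair and 87.2 and 40.7 FPKM in the T-ALL pair and did not pass (log2 difference -1.17, SE 0.26, adjusted p = 0.0698). The 2 receptors thus lay on opposite sides, with the second short of the threshold. Of 16 Toll-like receptor genes and partners, 3 passed as higher, namely Cd14, Tlr4 and Ly96, which together bind lipopolysaccharide. Cd14 was at 8.38 and 174 FPKM in the normal pair and 14.9 and 58.2 FPKM in the T-ALL pair, and its normal pair was further apart than its T-ALL pair (log2 difference 3.06, SE 0.50, adjusted p = 0.0344). Tlr4 was at 3.86 and 35.8 FPKM in the normal pair and 3.80 and 13.03 FPKM in the T-ALL pair (log2 difference 2.23, SE 0.33, adjusted p = 0.0231). Cd14 lost its call without the normal F4/80lo or the normal F4/80hi library (adjusted p = 0.184 and 0.0768), and Tlr4 did so without the normal F4/80lo or the normal F4/80hi library (adjusted p = 0.127 and 0.0725). Ly96 lost its call without the normal F4/80lo, normal F4/80hi or the T-ALL F4/80lo library (adjusted p = 0.273, 0.178 and 0.0893), and Fcgr1 did so without the normal F4/80hi library (adjusted p = 0.0678).

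Transcription factors of macrophages showed a narrow set of differences. Of 25 measured, 4 passed as higher, among them Spic, Nr1h3 and Maf, and 1 as lower (Nr4a1), with a median log2 difference of -0.38. Maf, a basic leucine zipper factor, was at 1.31 and 30.4 FPKM in the normal pair and 0.71 and 5.65 FPKM in the T-ALL pair (log2 difference 2.86, SE 0.42, adjusted p = 0.023). It was low in the F4/80lo libraries and lower in the T-ALL than in the normal F4/80hi library. Spi1, which encodes PU.1 and was named after its values were seen, was high in all 4 libraries at 392 and 238 FPKM in the normal pair and 355 and 233 FPKM in the T-ALL pair and did not pass (log2 difference -0.66, SE 0.21, adjusted p = 0.158). Maf lost its call without the normal F4/80lo or the normal F4/80hi library (adjusted p = 0.124 and 0.0541).

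Of 8 genes for colony stimulating factor receptors and their relatives, 0 passed as higher and 2 as lower. Csf1r, the receptor on which macrophages depend, was at 218 and 1488 FPKM in the normal pair and 256 and 574 FPKM in the T-ALL pair, with the 2 F4/80hi libraries on top. It did not pass (log2 difference 1.96, SE 0.40, adjusted p = 0.0561). Kit, the stem cell factor receptor, was at 48.6 and 14.8 FPKM in the normal pair and 43.4 and 18.9 FPKM in the T-ALL pair (log2 difference -1.40, SE 0.19, adjusted p = 0.0181). Flt3, the receptor that drives dendritic cell development, was at 86.5 and 30.6 FPKM in the normal pair and 46.1 and 18.2 FPKM in the T-ALL pair (log2 difference -1.38, SE 0.25, adjusted p = 0.0427). Kit and Flt3 were lower in both F4/80hi libraries, and the summed level of the measured basophil and mast cell genes, a list that also holds Kit, was 93.4 and 35.1 FPKM in the normal pair and 373 and 149 FPKM in the T-ALL pair. The part of other cell types in these differences was not tested. Kit lost its call without the normal F4/80lo or the normal F4/80hi library (adjusted p = 0.158 and 0.102), and Flt3 did so without the normal F4/80lo, normal F4/80hi or the T-ALL F4/80lo library (adjusted p = 0.171, 0.269 and 0.14).

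Soluble factors and migration receptors added a small number of large differences. Of 22 growth and chemotactic factors, 5 passed as higher and 0 as lower, with a median log2 difference of 0.16. Igf1, insulin-like growth factor 1, was at 2.64 and 59.3 FPKM in the normal pair and 0.66 and 20.5 FPKM in the T-ALL pair (log2 difference 3.87, SE 0.25, adjusted p = 0.00119). Il1a, the alarmin interleukin 1 alpha, was at 0.9 and 34.3 FPKM in the normal pair and 1.16 and 18.9 FPKM in the T-ALL pair (log2 difference 3.71, SE 0.28, adjusted p = 0.00178). Il18 was at 31.7 and 243 FPKM in the normal pair and 14.4 and 141 FPKM in the T-ALL pair (log2 difference 3.05, SE 0.17, adjusted p = 0.00104). The F4/80lo libraries of Igf1 and Il1a were near or under 1 FPKM except for Igf1 in the normal spleen.

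Of 30 migration receptors and integrins, 4 passed as higher and 2 as lower. Ccr3, the eotaxin receptor, was at 9.13 and 264 FPKM in the normal pair and 2.77 and 57.05 FPKM in the T-ALL pair (log2 difference 4.33, SE 0.25, adjusted p = 0.00104). Ccr3 is also in the eosinophil list, of which 2 of 6 measured genes passed as higher and 0 as lower. The other was Alox15, a lipoxygenase also in the lipid list, at 0.74 and 3.44 FPKM in the normal pair and 1.24 and 12.2 FPKM in the T-ALL pair, highest in the T-ALL F4/80hi library (log2 difference 1.96, SE 0.33, adjusted p = 0.0328). Alox15 lost its call without the normal F4/80lo, T-ALL F4/80lo or the T-ALL F4/80hi library (adjusted p = 0.0531, 0.103 and 0.0612). Prg2, a granule protein gene that defines eosinophils, was at 12.03 and 7.28 FPKM in the normal pair and 107 and 23.3 FPKM in the T-ALL pair and did not pass (log2 difference -1.40, SE 0.40, adjusted p = 0.13), with the T-ALL F4/80lo library highest. Hs3st2, a heparan sulfate sulfotransferase in none of the lists, was at 2.75 and 70.5 FPKM in the normal pair and 1.11 and 44.04 FPKM in the T-ALL pair (log2 difference 4.33, SE 0.18, adjusted p = 0.000581).

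The 105 genes lower in F4/80hi were spread over several lists. They held 5 of 20 patrolling monocyte genes, 1 of 14 classical monocyte genes and 1 of 14 neutrophil genes, against 1.13% of the 9309 tested genes. A single gene says little about a list, and 1 other classical monocyte gene passed as higher. The lowest log2 difference among the genes named for size belonged to Ly6i, a member of the Ly6 family in which reads may be shared between copies. It was at 24.1 and 3.54 FPKM in the normal pair and 56.7 and 13.2 FPKM in the T-ALL pair, with the T-ALL library above the normal one in each gate (log2 difference -2.25, SE 0.37, adjusted p = 0.0319). Pglyrp1, a peptidoglycan recognition protein, was at 109 and 28.97 FPKM in the normal pair and 144 and 38.8 FPKM in the T-ALL pair (log2 difference -1.87, SE 0.17, adjusted p = 0.0036). Hp, haptoglobin, which binds free hemoglobin, was at 18.4 and 4.98 FPKM in the normal pair and 54.8 and 13.1 FPKM in the T-ALL pair (log2 difference -1.84, SE 0.21, adjusted p = 0.00911). Pglyrp1 and Hp did not overlap between gates, like 101 of the 105 lower genes. Hp, the ligand partner of the receptor Cd163, was lower where Cd163 was higher. Ly6i lost its call without the normal F4/80lo, normal F4/80hi or the T-ALL F4/80lo library (adjusted p = 0.257, 0.234 and 0.176), and Hp did so without the normal F4/80hi library (adjusted p = 0.0671).

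S100a4, a calcium-binding protein of motile cells, was at 659 and 145 FPKM in the normal pair and 515 and 201 FPKM in the T-ALL pair (log2 difference -1.76, SE 0.28, adjusted p = 0.0303). Ceacam1, an adhesion molecule, was at 55.5 and 13.3 FPKM in the normal pair and 71.8 and 19.3 FPKM in the T-ALL pair (log2 difference -1.92, SE 0.34, adjusted p = 0.0397). Slc16a3, the lactate exporter MCT4, was at 16.8 and 3.82 FPKM in the normal pair and 32.5 and 7.14 FPKM in the T-ALL pair (log2 difference -1.96, SE 0.33, adjusted p = 0.0335). All 3 were lower in both F4/80hi libraries, and Ceacam1 and Slc16a3 were higher in T-ALL than in normal spleen within each gate. The other genes among the 15 lowest that reached 10 FPKM were Krt80, Arhgef10l, Skint3, G0s2, Slc2a6, Dusp5, Gcnt2 and Rpl34-ps1, with log2 differences from -2.17 to -1.70. S100a4 lost its call without the normal F4/80lo or the normal F4/80hi library (adjusted p = 0.127 and 0.236). Ceacam1 lost its call without the normal F4/80lo, normal F4/80hi or the T-ALL F4/80lo library (adjusted p = 0.178, 0.307 and 0.16), and Slc16a3 did so without the normal F4/80lo, normal F4/80hi or the T-ALL F4/80lo library (adjusted p = 0.095, 0.301 and 0.119). All 8 of the others lost theirs without the normal F4/80hi library. For 67 of the 105 lower genes (63.8%), both Ly6chiF4/80lo libraries were above both F4/80hi libraries, against 15.8% of the tested genes.

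Patrolling monocyte genes were lower on balance, with few calls. Of 20 measured, 5 passed as lower and 0 as higher, and the median log2 difference was -1.20 (-1.26 in the normal and -1.33 in the T-ALL pair). Nr4a1, the nuclear receptor these monocytes need, was at 359 and 177 FPKM in the normal pair and 186 and 68.03 FPKM in the T-ALL pair (log2 difference -1.22, SE 0.21, adjusted p = 0.0344). It was lower in F4/80hi in both states and also lower in T-ALL than in normal spleen within each gate. Ace, angiotensin-converting enzyme, was at 47.8 and 7.06 FPKM in the normal pair and 65.97 and 13.3 FPKM in the T-ALL pair and did not pass (log2 difference -2.41, SE 0.53, adjusted p = 0.0698). Spn, the sialophorin CD43, was at 38.8 and 6.79 FPKM in the normal pair and 84.97 and 28.5 FPKM in the T-ALL pair and did not pass (log2 difference -1.95, SE 0.43, adjusted p = 0.0729). For Ace and Spn both F4/80hi libraries lay below both F4/80lo libraries, as they did for 25.9% of the described genes. The F4/80lo gate was not where these genes peaked. In the normal and T-ALL Ly6chiF4/80lo libraries Ace was at 301 and 109 FPKM, Spn at 97.4 and 94.3 FPKM and Nr4a1 at 537 and 237 FPKM. Each value was above both Ly6clo libraries of its state. Treml4, at 324 and 189 FPKM there, was below the F4/80hi library of each state. With the 4 Ly6clo libraries alone, 11 of the 20 patrolling monocyte genes passed as lower. Treml4 and Adgre4 were higher in F4/80hi in the normal pair: Adgre4, an F4/80 relative named after its values were seen, was at 67.0 and 294 FPKM in the normal pair and 96.8 and 102 FPKM in the T-ALL pair (log2 difference 1.09, SE 0.47, adjusted p = 0.28). Nr4a1 lost its call without the normal F4/80lo, normal F4/80hi, T-ALL Ly6chiF4/80lo, T-ALL F4/80lo or the T-ALL F4/80hi library (adjusted p = 0.0858, 0.146, 0.0502, 0.0906 and 0.134).

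**Figure D3:**
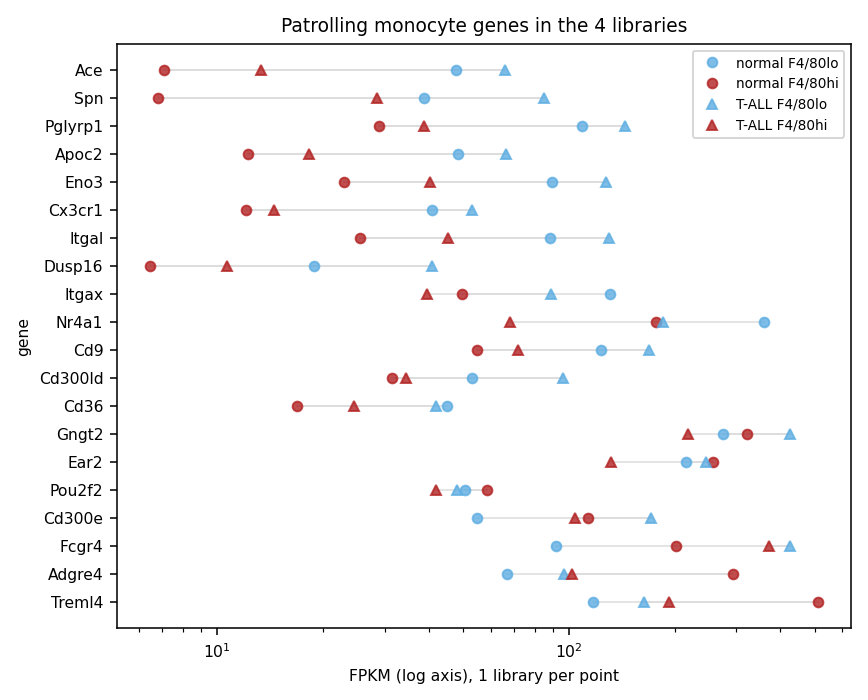
FPKM (log axis) of 20 patrolling monocyte genes in the 4 Ly6clo libraries, 1 row per gene, with symbols for gate and state. F4/80hi symbols lie to the left of F4/80lo symbols for Ace, Spn, Cx3cr1 and Pglyrp1 and to the right for Treml4 and Adgre4.

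Among antigen presentation genes, 1 passed, as higher. Of 16 genes of MHC class II presentation, 0 passed as lower and 1 as higher, with a median log2 difference of -0.73. H2-Eb1, a class II beta chain, was at 4115 and 1606 FPKM in the normal pair and 2114 and 1357 FPKM in the T-ALL pair (log2 difference -1.0, SE 0.32, adjusted p = 0.163). Cd86, a costimulatory ligand for T cells, was at 43.6 and 225 FPKM in the normal pair and 30.1 and 92.7 FPKM in the T-ALL pair (log2 difference 1.97, SE 0.22, adjusted p = 0.00815). Thus Cd86 was higher in F4/80hi libraries in which H2-Eb1 was at its 2 lowest values. Cd86 lost its call without the normal F4/80lo library (adjusted p = 0.0542).

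Of 21 genes of conventional dendritic cells, 2 passed as higher (Cadm1 and Sirpa, which red pulp macrophages share) and 1 as lower (Flt3), with a median of -0.87. Zbtb46, the transcription factor that defines these cells, was at 40.5 and 14.4 FPKM in the normal pair and 23.4 and 14.02 FPKM in the T-ALL pair (log2 difference -1.07, SE 0.25, adjusted p = 0.0745). Class II genes are also expressed by B cells, whose summed level was also lower in the F4/80hi library of each pair, and the part of B cells and dendritic cells in these values was not tested. Sirpa lost its call without the normal F4/80lo or the normal F4/80hi library (adjusted p = 0.0531 and 0.0767).

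Several groups showed no gene past the threshold in either direction. Among all 9309 tested genes 4.39% passed, so that 0 calls in lists this short lay near that share. Of 28 type I interferon stimulated genes 0 passed in limma, with a median log2 difference of 0.17, and 0 of 19 B cell, 0 of 9 plasma cell, 0 of 14 natural killer cell and 0 of 7 plasmacytoid dendritic cell genes passed, with medians of -0.59, -0.35, -0.91 and -0.33. Both F4/80hi libraries were below both F4/80lo libraries for 16 B cell and 12 natural killer cell genes, and above for 0. These counts were 4 and 10 for interferon stimulated, 1 and 1 for plasma cell and 4 and 2 for plasmacytoid dendritic cell genes. Over the described genes the shares were 25.9% below and 13.8% above. Irf7, an interferon regulatory factor, was at 79.5 and 151 FPKM in the normal pair and 67.9 and 91.2 FPKM in the T-ALL pair (log2 difference 0.67, SE 0.21, adjusted p = 0.149). In the neutrophil list Mpo, the myeloperoxidase of early granulocytes, passed as lower at 11.96 and 5.22 FPKM in the normal pair and 149 and 32.6 FPKM in the T-ALL pair (log2 difference -1.61, SE 0.27, adjusted p = 0.0344). Of the 4 libraries the T-ALL F4/80lo library was the highest. The other 13 neutrophil genes did not pass. Mpo lost its call without the T-ALL F4/80lo or the T-ALL F4/80hi library (adjusted p = 0.0932 and 0.0726).

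**Figure D4:**
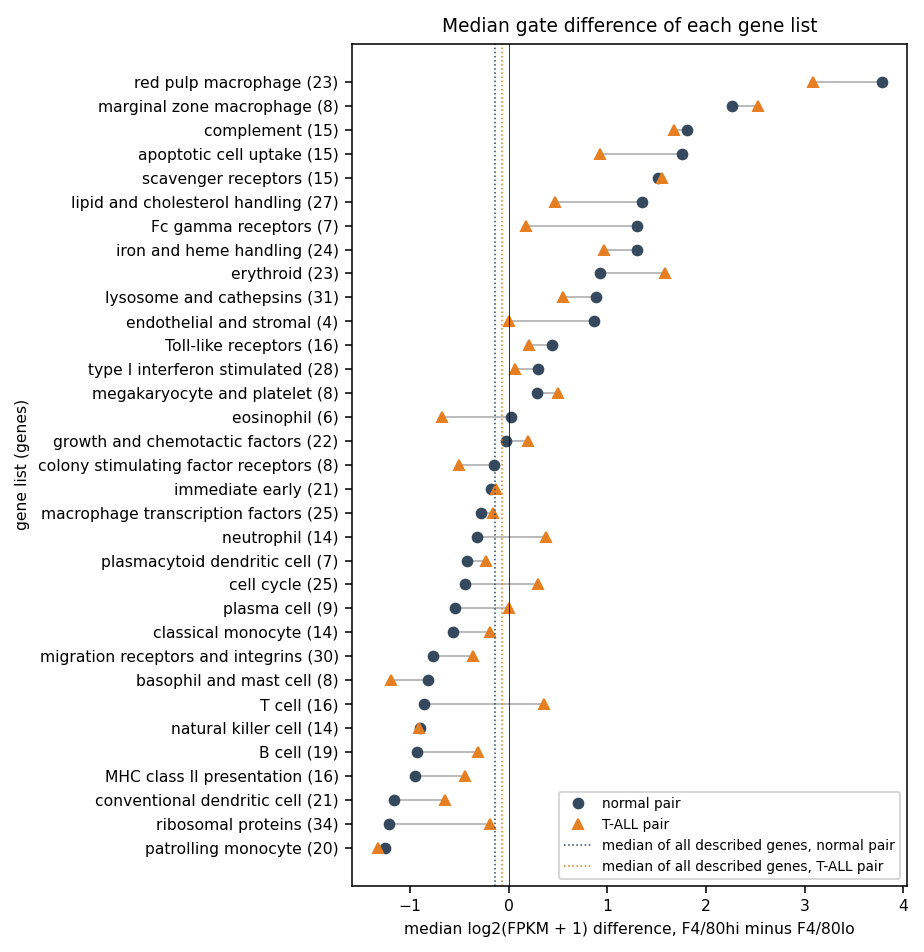
Median log2 difference (F4/80hi minus F4/80lo, FPKM + 1) of each of 33 gene lists, with circles for the normal pair, triangles for the T-ALL pair and dotted lines for the medians of all described genes. Red pulp macrophage, marginal zone macrophage and complement genes lie far to the right in both pairs, patrolling monocyte genes to the left in both, and T cell, Fc gamma receptor and ribosomal protein genes show the widest gaps between the 2 symbols.

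Erythroid genes had a larger summed level in the F4/80hi library of each state, although 1 of them passed. The summed level of 23 erythroid genes was 702 and 5303 FPKM in the normal pair and 6642 and 41668 FPKM in the T-ALL pair. Of the 23, 1 passed as higher and 0 as lower, and the median log2 difference was 1.17. Both F4/80hi libraries were above both F4/80lo libraries for 2 of the 23, against 13.8% of the described genes. Hba-a2, an alpha globin gene whose reads cannot be separated with certainty from its copy Hba-a1, was at 42.8 and 705 FPKM in the normal pair and 335 and 4104 FPKM in the T-ALL pair (log2 difference 3.81, SE 0.68, adjusted p = 0.0441). Hba-a1 was at 265 and 2438 FPKM in the normal pair and 2579 and 18609.8 FPKM in the T-ALL pair and did not pass (log2 difference 3.02, SE 0.83, adjusted p = 0.122). Alas2, the first enzyme of heme synthesis in red cell precursors, was at 2.27 and 18.1 FPKM in the normal pair and 19.98 and 146 FPKM in the T-ALL pair and did not pass (log2 difference 2.68, SE 0.59, adjusted p = 0.0716). The T-ALL F4/80lo library exceeded the normal F4/80hi library in Hba-a1 and Alas2 and was below it in Hba-a2. With the 4 Ly6clo libraries alone 11 of the 23 passed as higher, and without the normal F4/80lo, the normal F4/80hi or the T-ALL F4/80hi library none did. The red pulp list moved with these genes in both pairs, and the part of red cells or their precursors in the F4/80hi libraries was not tested. Hba-a2 lost its call without the normal F4/80lo, normal F4/80hi, T-ALL F4/80lo or the T-ALL F4/80hi library (adjusted p = 0.47, 0.297, 0.13 and 0.105).

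Ribosomal protein genes were lower in the normal F4/80hi library and nearly level in the T-ALL pair. Of 34 measured, 31 were at least 2-fold lower in the normal pair and 0 in the T-ALL pair, where 6.74% and 2.32% of all genes were. The medians were -1.21 in the normal pair and -0.18 in the T-ALL pair, and none of the 34 passed the test over both, although 8 passed as lower without the T-ALL F4/80lo library. Rpl30, a protein of the large subunit, was at 684 and 213 FPKM in the normal pair and 683 and 579 FPKM in the T-ALL pair (log2 difference -0.96, SE 0.38, adjusted p = 0.245). Only the normal F4/80hi library was low, and the normal Ly6chiF4/80lo library was low as well, at 207 FPKM.

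Cell cycle genes did not pass between the gates. Of 25, 0 passed in limma, where 4.39% of all 9309 tested genes did. The medians were -0.44 in the normal pair and 0.30 in the T-ALL pair. Rrm2, the small subunit of ribonucleotide reductase, was at 24.3 and 25.4 FPKM in the normal pair and 110.2 and 212 FPKM in the T-ALL pair (log2 difference 0.50, SE 0.24, adjusted p = 0.334). Both T-ALL libraries were above both normal ones. The median of the T cell genes was -0.86 in the normal and 0.36 in the T-ALL pair, a gap that was not tested. Both F4/80hi libraries were below both F4/80lo libraries for 6 of the 16 and above for 1, against 25.9% and 13.8% of the described genes. Of the 16, Cd4, which dendritic cells of the spleen also express, passed as lower (log2 difference -1.12, SE 0.21, adjusted p = 0.049) and the others did not pass. Cd3e, a chain of the T cell receptor complex, was at 6.53 and 2.22 FPKM in the normal pair and 3.71 and 10.8 FPKM in the T-ALL pair. The F4/80hi library was the lower one in normal spleen and the higher one in T-ALL. Cd3e was higher still in the normal Ly6chiF4/80lo library, at 12.6 FPKM. Transplanted leukemia cells are of the T lineage, and whether any entered a gate was not tested. Cd4 lost its call without the normal Ly6chiF4/80lo, normal F4/80lo, normal F4/80hi, T-ALL Ly6chiF4/80lo or the T-ALL F4/80lo library (adjusted p = 0.056, 0.378, 0.293, 0.0549 and 0.059).

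**Figure D5:**
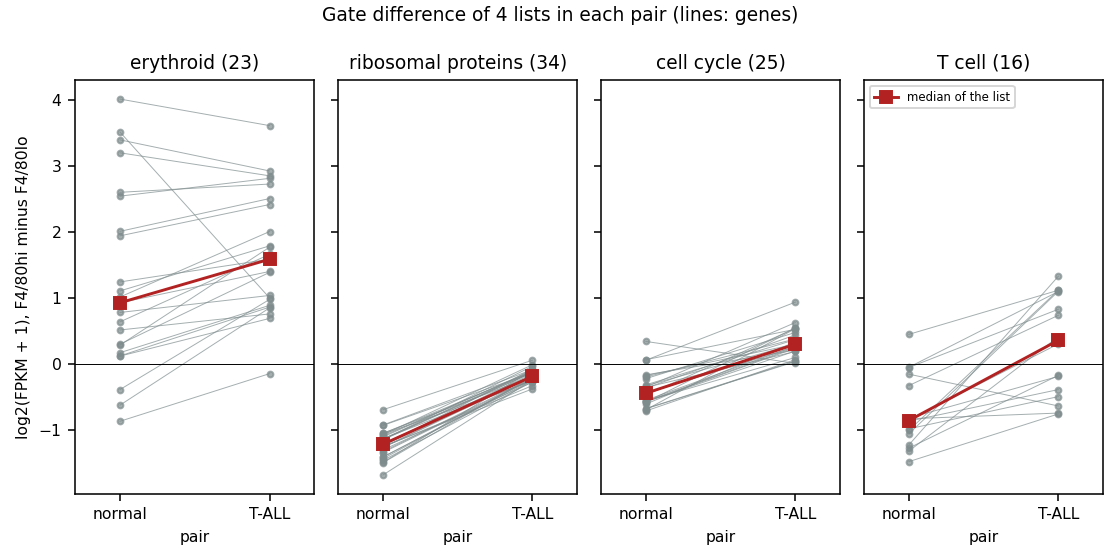
Log2 difference in FPKM + 1 between F4/80hi and F4/80lo for erythroid (23), ribosomal protein (34), cell cycle (25) and T cell (16) genes, with a line joining the normal and the T-ALL value of each gene and red squares for the median of the list. Erythroid medians are above 0 in both pairs, ribosomal medians rise from -1.21 to near 0, and cell cycle and T cell medians cross from below to above 0.

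Gaps between the 2 pairs in single genes are given without a test, since each pair had 1 library a side. Among genes that reached 10 FPKM, the 3 with the widest gap toward the normal pair were Tmem220, Pate9 and Podn. Tmem220, a membrane protein, was at 1.94 and 694 FPKM in the normal pair and 1.88 and 1.82 FPKM in the T-ALL pair. Pate9 was at 1.60 and 27.6 FPKM in the normal pair and 3.84 and 1.43 FPKM in the T-ALL pair. Podn, the matrix protein podocan, was at 0.91 and 51.1 FPKM in the normal pair and 0.18 and 0.65 FPKM in the T-ALL pair. All 3 were high in the normal F4/80hi library alone, as were Mfsd4b5, Serpina1a and Kcnj15, with gaps of -3.13, -3.0 and -2.86 on the log2 scale. Slpi, an inhibitor of leukocyte proteases, was at 67.01 and 1109 FPKM in the normal pair and 489 and 911 FPKM in the T-ALL pair. Its F4/80hi libraries were alike and its F4/80lo libraries were not. Fpr1, the formyl peptide receptor, was at 8.29 and 211 FPKM in the normal pair and 29.03 and 97.2 FPKM in the T-ALL pair, and Angptl4, an inhibitor of lipoprotein lipase, at 2.13 and 52.2 FPKM in the normal pair and 6.22 and 16.6 FPKM in the T-ALL pair. Both were highest in the normal F4/80hi library.

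Among the genes with the widest gaps toward the T-ALL pair that reached 10 FPKM, Ackr1 and Saa3 came first. Ackr1, a receptor that binds chemokines without signalling, was at 1.90 and 0.69 FPKM in the normal pair and 3.05 and 14.2 FPKM in the T-ALL pair, highest in the T-ALL F4/80hi library. Saa3, a serum amyloid A protein of macrophages, was listed at 0 in the normal F4/80lo library and at 3.41 FPKM in the normal F4/80hi library, and was at 0.48 and 38.5 FPKM in the T-ALL pair. It passed over both pairs (log2 difference 3.44, SE 0.61, adjusted p = 0.0441), with the T-ALL F4/80hi library far above the other 3. Apol11b, of the apolipoprotein L family, was at 0.97 and 2.99 FPKM in the normal pair and 12.9 and 126 FPKM in the T-ALL pair. It was highest in the T-ALL F4/80hi library by a wide margin, and its T-ALL F4/80lo library was above both normal ones. Dntt, the terminal transferase of lymphocyte precursors, was at 0.49 and 0.38 FPKM in the normal pair and 2.70 and 16.5 FPKM in the T-ALL pair. Among the 4 Ly6clo libraries only the T-ALL F4/80hi library exceeded 5 FPKM. The normal and T-ALL Ly6chiF4/80lo libraries were at 4.43 and 7.31 FPKM. Saa3 lost its call without the normal F4/80lo or the T-ALL F4/80lo library (adjusted p = 0.2 and 0.199).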

How the data were processed

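RNA was measured in 6 sorted spleen fractions, 1 library per gate and state. Alignment used Bowtie2 2.2.5 and quantification used RSEM, per the submitters' processing notes. The authors deposited FPKM per gene with 2 decimals and no row for a gene at 0. The sources used here give no RSEM version, genome build or annotation. Missing genes were taken as 0. Gene symbols were matched by Entrez identifier (16017 of 16058). Depth is not in the files and was estimated from the steps between low FPKM values.

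Differences were tested with limma 3.58.1 (R 4.3.3, statmod 1.5.0), trended and robust, on log2(FPKM + 1) with gate and state as terms. The fit had 2 residual degrees of freedom and was two-sided, with Benjamini-Hochberg adjustment over 11616 genes, and a gene passed at an adjusted p under 0.05. On simulated data the fit recovered changed genes, with a share of false calls a little above the nominal level. Within a pair there was no test, and 2-fold differences were counted. Alternatives changed the pseudocount, filter, scaling, prior, libraries and block.

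The genes and lists were chosen with earlier results of these data known. Named were 8 sort and macrophage genes, the 15 highest and 15 lowest passing genes of at least 10 FPKM, the 6 largest differences of each list, its defining markers, and 10 genes each way between the pairs. Promoters came from RefSeq (GRCm38.p6), for 15 of 24 red pulp genes. The result for 1 gene is not reported here.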

Additional observations from a re-analysis of the deposited data

Results flagged for a closer look

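In 6 genes the F4/80hi library was at least 2-fold higher than the F4/80lo library in one state and at least 2-fold lower in the other. The difference between the states was not tested, since each pair had 1 library a side. They were found by that criterion and so were chosen on their values. Cd3e, of the T cell receptor complex, was at 6.53 and 2.22 FPKM in the normal pair and 3.71 and 10.8 FPKM in the T-ALL pair, and its log2 difference was 2.56 larger in the T-ALL pair. Cd3g, of the same complex, was at 7.61 and 3.29 FPKM in the normal pair and 5.74 and 13.6 FPKM in the T-ALL pair, with a gap of 2.12. Tcf7, a transcription factor of T cells, was at 6.49 and 2.60 FPKM in the normal pair and 6.63 and 15.4 FPKM in the T-ALL pair, with a gap of 2.16. Among the 4 Ly6clo libraries these 3 T lineage genes were lowest in the normal F4/80hi and highest in the T-ALL F4/80hi library. The normal Ly6chiF4/80lo library was above the T-ALL F4/80hi library for Cd3e and Cd3g, at 12.6 and 14.1 FPKM. For Tcf7 it was below, at 6.99 FPKM. Syngr1, a vesicle protein, was at 1.31 and 0.03 FPKM in the normal pair and 5.01 and 13.2 FPKM in the T-ALL pair, with a gap of 2.40. H2ac10, a histone gene with near-identical copies, was listed at 0 in the normal F4/80hi and the T-ALL F4/80lo library and at 2.93 and 5.56 FPKM in the other two, with a gap of 4.69. Rsc1a1 was listed at 0 in the T-ALL F4/80lo library and was at 5.12, 1.28 and 3.57 FPKM in the normal F4/80lo, normal F4/80hi and T-ALL F4/80hi libraries, with a gap of 3.62.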

How the results depend on the processing

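The labels give no replicate numbers that tie fractions together, so the gates could be paired only through state. The fits held a state block, which sets the 2 gates of a state against each other. The exception was the alternative without that block, in which 0 genes passed, higher or lower. Of the 409 passing genes, 304 higher and 105 lower, the counts became 166, 154 and 12 with no filter on low values, and 56 lower genes passed with median-ratio scaling and 197 with the 4 Ly6clo libraries only. Leaving out 1 library gave 127 to 630 genes, 116 to 458 higher and 9 to 198 lower. The fewest came without a normal Ly6clo library, and the cause was not tested. With a 4-fold threshold 336 genes were apart in the normal pair, 177 in the T-ALL pair, 142 in both and 0 in opposite ways, and with a pseudocount of 0.1 FPKM 14 were so in opposite ways. The median log2 difference of all tested genes was -0.10 as deposited, -0.01 with median-ratio scaling and -0.08 with quantile normalization.

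Of 80 passing genes named here, 34 lost the call with no filter, 10 with each other scaling, 35 without the normal F4/80lo library and 34 without the normal F4/80hi library. No passing named gene changed direction in the 14 alternatives. Reversed values occurred among genes that did not pass: with a pseudocount of 0.1 FPKM Syngr1 at -1.03 and Tcf7 at -0.043. With 1 library left out the log2 difference of Cd3e ranged from -1.19 to 1.30, of Cd3g from -1.06 to 1.17, of H2ac10 from -1.80 to 2.54, of Rsc1a1 from -1.02 to 1.79, of Syngr1 from -1.39 to 1.47 and of Tcf7 from -1.05 to 1.09, below 0 without either T-ALL Ly6clo library. Dntt ranged from -0.29 without the T-ALL F4/80hi library to 2.42, and Ly6c2 from -0.92 to 0.10 without the normal F4/80lo library. Ackr1 ranged from -0.92 without the T-ALL F4/80hi library to 2.05, and Mfsd4b5 from -0.25, Pate9 from -0.65 and Serpina1a from -0.24, each without the normal F4/80hi library, to 2.50, 3.12 and 3.04. Depth limits genes near 1 FPKM.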
